A study of Arabidopsis thaliana with 27 samples.

Results

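The pericycle is the outermost layer of the root's central cylinder. It surrounds the xylem and the phloem, loads ions into the xylem and gives rise to lateral roots. Pep1 is a danger peptide of Arabidopsis, cut from the precursor PROPEP1 upon damage and perceived by the receptor kinases PEPR1 and PEPR2 together with the co-receptor BAK1. Perception is known to start an oxidative burst, MAP kinase signaling and the induction of defense genes, among them further PROPEP genes. The comparison described here asks which transcripts differed between sorted pericycle cells of roots given Pep1 and of roots given a mock treatment.

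The members are the 3 libraries titled pericycle Pep1 and the 3 titled pericycle mock, 6 of the 27 libraries in the series, chosen by their titles. The other 21 libraries are the 3 pericycle libraries labelled flg22, a peptide of bacterial flagellin, and the mock, flg22 and Pep1 libraries of sorted cortex and epidermis. All pericycle libraries come from the enhancer trap line E3754 in the Col-0 background, in which green fluorescent protein marks the pericycle at the xylem poles, so each library is bulk RNA of cells that passed a fluorescence gate after protoplasting. The labels give an age of 10 d, a treatment of 1 h and a dose written as 1 mM, whereas the design text gives 1 µM and sampling 2 h after treatment, and the study's methods give another age for the sorted plants. Mock and Pep1 roots carried the same transgene and went through the same protoplasting and sorting. The study's methods describe the replicates as separate biological experiments.

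Each library title opens with a code that the labels do not explain and that may name a sequencing pool. The 3 mock libraries share 1 code, Pep1 replicates 1 and 2 share another and Pep1 replicate 3 has yet another. The 3 pericycle libraries labelled flg22 share a further code, which no mock or Pep1 library of the pericycle has. No code holds more than 1 label in the pericycle, so no value within a code can be given. Label and code cannot be told apart in any difference below, and this includes flg22 against mock. Gene counts per library were 8015286 to 13182958 for mock and 4172741 to 13322042 for Pep1, lowest in Pep1 replicate 1. Reads outside any gene amounted to 6.65 to 7.12% of the mock libraries and 8.84 to 9.31% of the Pep1 libraries, and reads assigned to a gene 23.5 to 29.5% and 20.2 to 22.6%. Reads that fell on more than 1 gene amounted to 4.73 to 5.51% of the mock and 4.02 to 4.31% of the Pep1 libraries, and reads that did not map uniquely to 58.7 to 63.9% and 64.2 to 66.2%. The labels overlapped in none of these 4 shares (exact two-sided permutation test, p = 0.10 for each, the smallest p that 3 against 3 allows).

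Marker genes were read first as a check of the cell type. The 8 markers of xylem-pole pericycle summed to 1286 to 2360 CPM (counts scaled to library size and by the trimmed mean of M values) in the mock libraries and 2033 to 3001 CPM in the Pep1 libraries, above every other marker list in each of these libraries. Most of this came from PHO1, the phosphate exporter of the xylem parenchyma and pericycle, and NPF7.3, the nitrate transporter that loads the xylem. GATA23, a regulator of founder cells of lateral roots, and AHP6, an inhibitor of cytokinin signaling, did not pass the filter on low counts, and AHP6 was at 0 in 3 of the 6 libraries. Of the endodermis markers, SCR and CASP1 had counts in all 6 libraries and CASP2 and MYB36 in 5 of them, whereas ESB1 was at 0 in all 6 and CASP4 and CASP5 in 5. The epidermal, root hair and cortical lists overlapped between the labels.

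Of the lists for other cell types, the phloem, xylem and endodermis lists did not overlap between the labels. Among single genes tested, the labels did not overlap in 5.73% with Pep1 higher and in 6.4% with Pep1 lower. The phloem markers were SUC2, the sucrose symporter of companion cells, APL, the transcription factor of phloem identity, PP2-A1, a lectin of companion cells and sieve elements, and SEOR1, a protein of the sieve element filaments. They summed to 104, 124 and 66.1 CPM in mock replicates 1 to 3 and to 497, 245 and 538 CPM in Pep1 replicates 1 to 3. Every Pep1 library was above every mock library. The pericycle libraries labelled flg22 summed to 203 to 359 CPM and also lay above mock. The xylem list, carried mainly by the cysteine protease XCP2, ran from 12.2 to 22.8 CPM in mock and from 36.1 to 61.4 CPM in Pep1. It ran from 34.7 to 68.7 CPM in flg22. Its 4 tested members all had a log2 fold change above 0. Of these 4, 1 had an unadjusted p under 0.05 in edgeR, and 2 kept 1 direction in all 3 same-numbered pairs. Those shares were 1.83% (higher) and 29.7% over all genes. VND6, a master regulator of xylem vessels, was at 0 in all 6 libraries. The summed endodermis list ran the other way, from 25.3 to 68.0 CPM in mock and from 9.23 to 24.5 CPM in Pep1. Its members were mixed: of 4 tested, 1 had a log2 fold change above 0 and 3 below. In edgeR 0 of them had an unadjusted p under 0.05, and 0 kept 1 direction in all 3 same-numbered pairs. In bulk RNA, more cells of a type and more RNA per cell cannot be told apart.

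**Figure D1:**
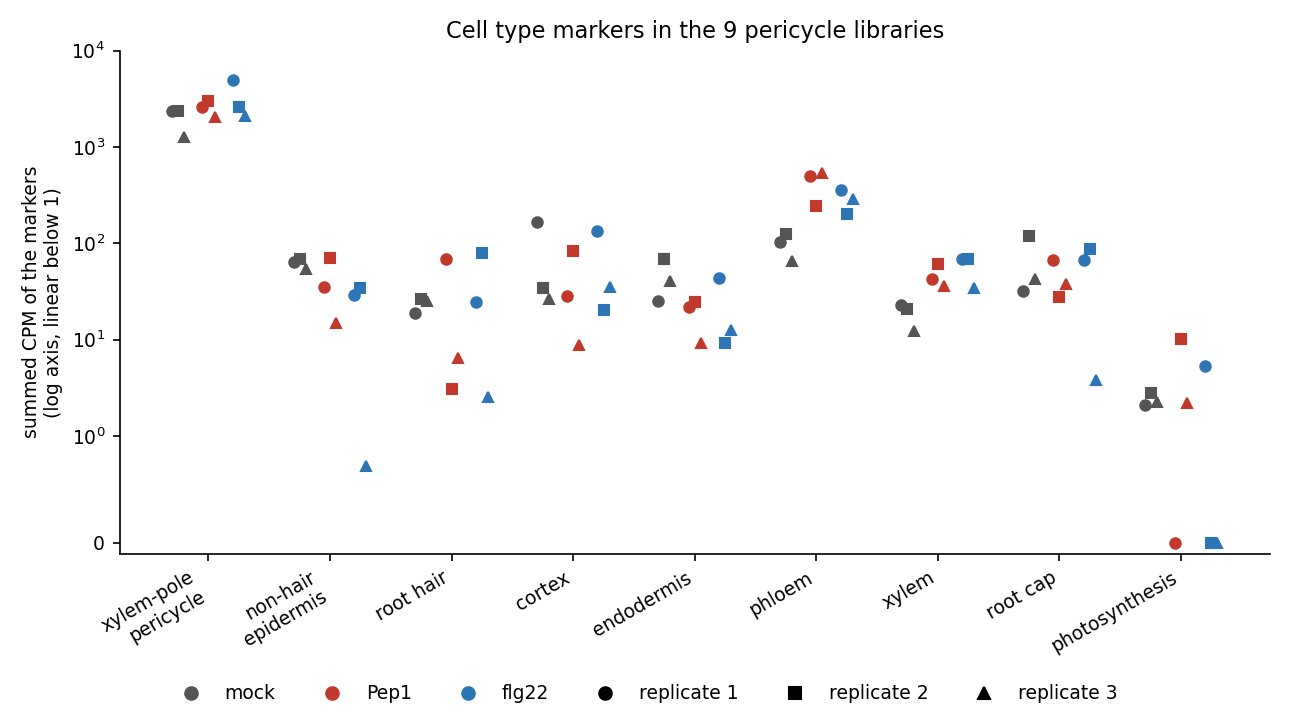
Summed CPM of each list of cell type markers (log axis, linear below 1) in the 9 pericycle libraries, colored by label, with a symbol for each replicate number. The phloem markers lie at 66.1 to 124 CPM in mock and at 245 to 538 CPM in Pep1, whereas the pericycle markers lie at 1286 to 2360 CPM and 2033 to 3001 CPM.

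A second check concerned the labels themselves. Most genes of a list that elicitors are known to induce within an hour or so in roots were lowest in the libraries numbered 1, whichever the label. PER4, a secreted peroxidase, was at 25.4, 311 and 221 CPM in mock replicates 1 to 3 and at 2.48, 285 and 165 CPM in Pep1 replicates 1 to 3. GSTF7, a glutathione transferase, was at 3.22, 112 and 179 CPM in mock and at 0.825, 26.6 and 153 CPM in Pep1. IGMT4, a methyltransferase of indole glucosinolates, was at 4.96, 181 and 191 CPM in mock and at 7.43, 62.8 and 141 CPM in Pep1. In each of these 3 genes the library numbered 1 was low and those numbered 2 and 3 were high, and the flg22 libraries had the same order. Of the 24 genes of the early elicitor response, 16 were lowest in replicate 1 within mock, within flg22 and within Pep1, a share of 66.7%, against 972 of 17692 genes tested, or 5.49%. The other 8 did not show this order. The list was chosen with earlier results of these data known, so the share is a description. The order by replicate number compares replicates, and edgeR called none of the 24 genes between the labels. Its fit recovered 0.5% of planted 2-fold differences in simulated counts, so neither can decide whether the labels match the treatments. The study names PER4 and IGMT4 among genes responding to the elicitors in every sorted cell type. The groups are called the libraries labelled mock and labelled Pep1, and every direction below is a direction between labels.

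**Figure D2:**
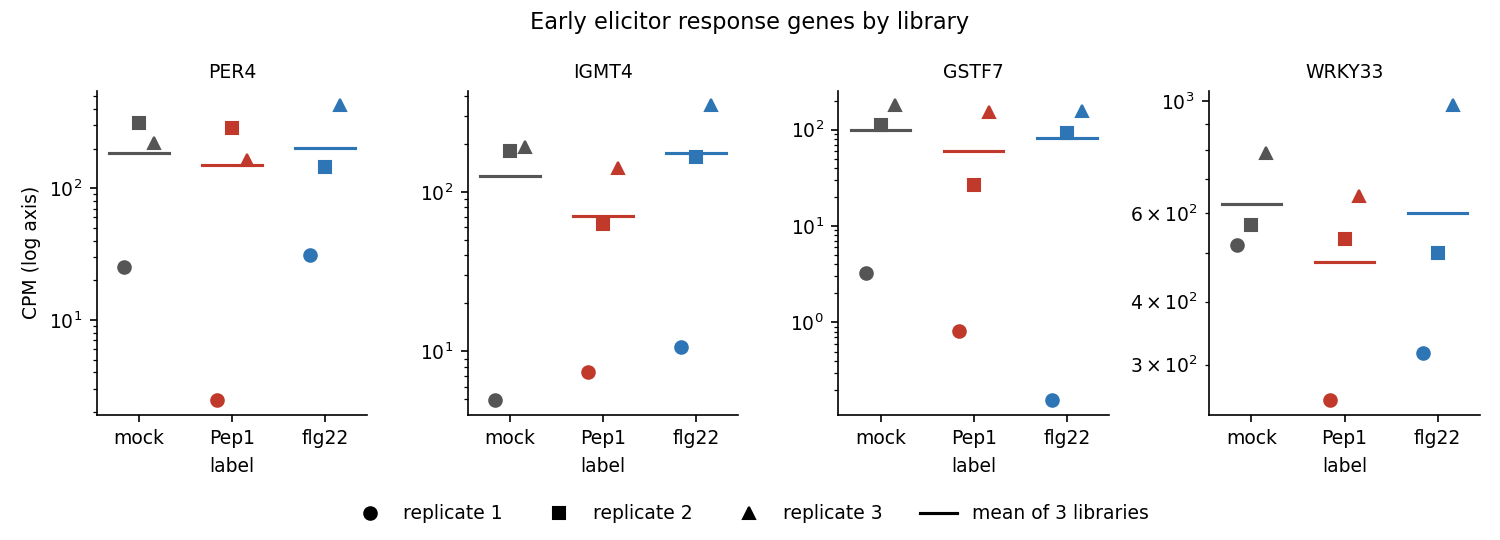
CPM (log axis) of PER4, IGMT4, GSTF7 and WRKY33 in each pericycle library, by label, with a symbol for each replicate number and a line at the mean of 3 libraries. Replicate 1 is the lowest library of each label in all 4 genes, for example 25.4 CPM of PER4 in mock and 2.48 CPM in Pep1.

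Of 17692 genes tested, 2 were higher in the libraries labelled Pep1, or 0.0113%, and 0 were lower, or 0.0%, at an adjusted p under 0.05 (edgeR quasi-likelihood F test with the replicate number as a block, fitted on the 9 pericycle libraries). At an unadjusted p under 0.05 there were 324 higher and 239 lower genes, 1.83% and 1.35% of those tested, and DESeq2 called 41 higher and 12 lower, or 0.3% together. The called genes were AAP2 and AT1G07590. The median log2 fold change of all genes was -0.04, and 47.9% of genes lay above 0. The labels did not overlap in 5.73% of all genes with Pep1 higher and in 6.4% with Pep1 lower. Each remark below that a gene did not overlap is to be read beside these shares. Both calls were lost without mock replicate 1, mock replicate 3, Pep1 replicate 1 or Pep1 replicate 3, with no replicate block, and when ribosomal protein genes were kept, where the adjusted p was 0.056 for both.

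AAP2 (AT5G09220, chromosome 5, 2866222 to 2869156, plus strand, TAIR10.1) encodes an amino acid permease that is known from the phloem, where it moves amino acids from the xylem to the phloem. Its level was 463, 466 and 365 CPM in mock replicates 1 to 3 and 4175, 1414 and 1823 CPM in Pep1 replicates 1 to 3. The labels did not overlap, and Pep1 replicate 1, the shallowest library, was the highest. The log2 fold change was 2.40 ± 0.35 (SE, n = 3 against 3, adjusted p = 0.0353 in edgeR), or 5.29-fold, and it was higher in 3 of 3 same-numbered pairs. Without Pep1 replicate 1 it was 1.91 on the log2 scale with an adjusted p of 0.178 in edgeR, and over all libraries left out in turn it ran from 1.91 to 2.74. The pericycle libraries labelled flg22 held 1439, 1333 and 1564 CPM of AAP2, also above mock, with a log2 difference from mock of 1.75 ± 0.34 (adjusted p = 0.202 in edgeR), which shares the mock libraries. Pep1 minus flg22 was 0.65 ± 0.34 (adjusted p = 0.993 in edgeR). The phloem markers above moved between the labels in the same direction as AAP2, and their part in this difference was not tested.

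AT1G07590 (chromosome 1, 2336477 to 2339391, minus strand) is annotated as a tetratricopeptide repeat-like protein. Its level was 221, 256 and 142 CPM in mock and 2173, 689 and 1196 CPM in Pep1, again without overlap and again highest in Pep1 replicate 1. The log2 fold change was 2.65 ± 0.39 (SE, n = 3 against 3, adjusted p = 0.0353 in edgeR), or 6.27-fold, higher in 3 of 3 same-numbered pairs. The libraries labelled flg22 held 750, 786 and 783 CPM. The gene MT1A (AT1G07600, 2338904 to 2339321), which encodes a small metallothionein, lies on the same strand inside AT1G07590, and all 138 bases of its 2 exons fall within exons of AT1G07590, ahead of that gene's coding region. MT1A itself was listed at 0 counts in all 27 libraries. Reads of MT1A and of AT1G07590 cannot be told apart in the deposited counts.

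The 250 bases ahead of the annotated start of both called genes are shown as the proximal promoters of the only genes that passed the test. A search of both strands looked for the W-box of WRKY factors (TTGACC or TTGACT) and for the G-box of bZIP and bHLH factors (CACGTG), which do not overlap each other in the windows shown. Capitals mark a match, and each sequence reads 5′ to 3′ toward the gene.
AAP2, chr5:2865972-2866221, plus strand: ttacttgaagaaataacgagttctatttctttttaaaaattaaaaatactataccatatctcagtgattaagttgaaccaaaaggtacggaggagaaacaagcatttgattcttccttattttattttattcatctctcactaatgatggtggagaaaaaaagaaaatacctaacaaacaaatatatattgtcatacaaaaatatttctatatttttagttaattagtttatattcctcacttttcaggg
AT1G07590, chr1:2339392-2339641, minus strand: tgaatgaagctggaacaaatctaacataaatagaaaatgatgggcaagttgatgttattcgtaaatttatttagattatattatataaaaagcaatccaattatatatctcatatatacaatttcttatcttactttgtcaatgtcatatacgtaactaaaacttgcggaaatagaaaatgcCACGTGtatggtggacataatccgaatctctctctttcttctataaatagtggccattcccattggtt

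The AAP2 window held neither motif. The AT1G07590 window held 1 G-box and no W-box. Over the genes tested, 29.1% of windows of the same length hold a W-box and 7.45% a G-box. A match is a run of letters and not evidence of binding.

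Next in order of p came genes that missed the threshold. AT1G67870, a glycine-rich protein, was at 193, 271 and 127 CPM in mock and at 1475, 702 and 828 CPM in Pep1 (log2 difference 2.32 ± 0.37, adjusted p = 0.0553 in edgeR). XIP1, also known as CEPR1, a receptor kinase of the vasculature that perceives C-terminally encoded peptides, was at 79.8, 73.6 and 41.5 CPM in mock and at 544, 215 and 287 CPM in Pep1 (2.39 ± 0.40, adjusted p = 0.0653 in edgeR). AT2G18196, of the heavy metal transport and detoxification family, was at 20.7, 20.5 and 13.1 CPM in mock and at 145, 111 and 110 CPM in Pep1 (2.75 ± 0.46, adjusted p = 0.0653 in edgeR). In all 3 genes, which were picked for their small p, every Pep1 library lay above every mock library, as in 5.73% of all genes tested. A fit on the 6 libraries alone called 5 genes, or 0.0293% of those it tested, namely these 3 with AAP2 and AT1G07590, each at an adjusted p of 0.0177 in edgeR. The flg22 libraries of the pericycle held 753 to 935 CPM of AT1G67870, 151 to 178 CPM of XIP1 and 64.3 to 192 CPM of AT2G18196, all above the mock libraries that both comparisons share.

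**Figure D3:**
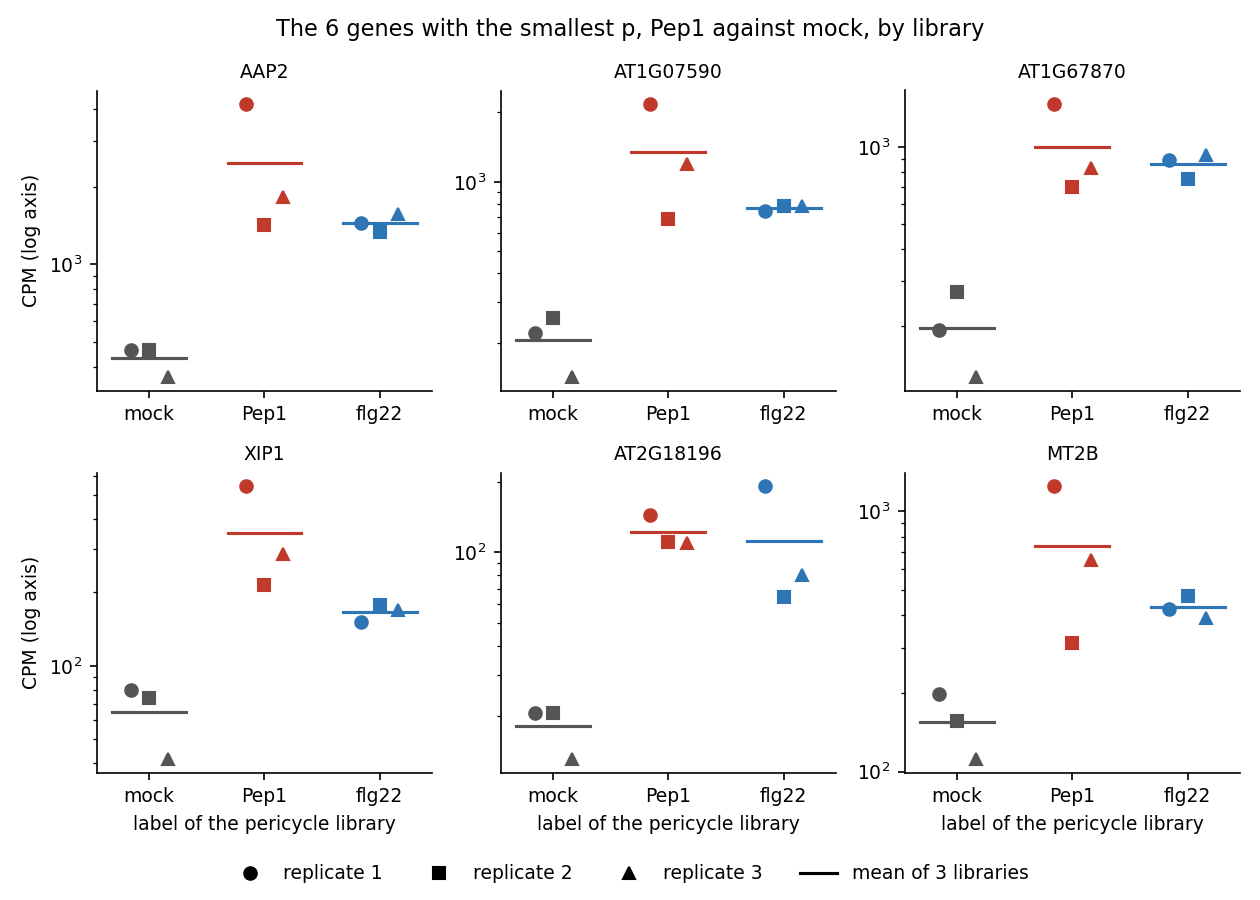
CPM (log axis) in each pericycle library of the 6 genes with the smallest p between Pep1 and mock, by label, with a symbol for each replicate number and a line at the mean of 3 libraries. The 3 mock libraries lie below the 6 others in each gene, for example at 365 to 466 CPM of AAP2 against 1333 to 4175 CPM.

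The 12 genes with the smallest p among those higher at a mean log2 CPM of at least 2, in all 3 same-numbered pairs, spanned 3.76 to 6.74-fold, with adjusted p up to 0.483. In each of the 12 every Pep1 library lay above every mock library, which held for 5.73% of all genes tested, and 11 of them were highest in Pep1 replicate 1 within that label. These genes were picked for their difference, so their values are a description. They included MT2B, a metallothionein, at 199, 157 and 112 CPM in mock and at 1250, 312 and 653 CPM in Pep1. SUC2 was at 31.0, 35.3 and 20.8 CPM in mock and at 159, 107 and 173 CPM in Pep1 (log2 difference 2.27 ± 0.46, adjusted p = 0.346 in edgeR). CLV1, a receptor kinase for CLE peptides, was at 74.7, 80.8 and 34.8 CPM in mock and at 430, 130 and 300 CPM in Pep1. The protease gene MC3, a metacaspase, was at 56.3, 69.9 and 41.7 CPM in mock and at 291, 126 and 222 CPM in Pep1. MC3 overlaps a gene on the other strand, and the counting did not use strand.

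On the lower side the 12 genes chosen in the same way spanned 2.19 to 24.3-fold at unadjusted p of 0.00152 to 0.0052, with an adjusted p of 1.00 for each in edgeR, and 10 of them did not overlap between the labels, against 6.4% of all genes tested. MAP65-2, a protein that bundles microtubules, was at 38.5, 54.9 and 73.5 CPM in mock and at 9.90, 10.6 and 7.06 CPM in Pep1. CPI1, the cyclopropyl isomerase of sterol synthesis, was at 95.7, 114 and 107 CPM in mock and at 27.6, 48.8 and 35.6 CPM in Pep1. RCI3, a peroxidase, was at 42.4, 68.8 and 28.8 CPM in mock and at 8.25, 5.77 and 0 CPM in Pep1. The libraries labelled flg22 held 24.8 to 33.9 CPM of MAP65-2, 92.7 to 126 CPM of CPI1 and 0.18 to 67.9 CPM of RCI3. DESeq2 called MAP65-2 and RCI3 lower.

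**Figure D4:**
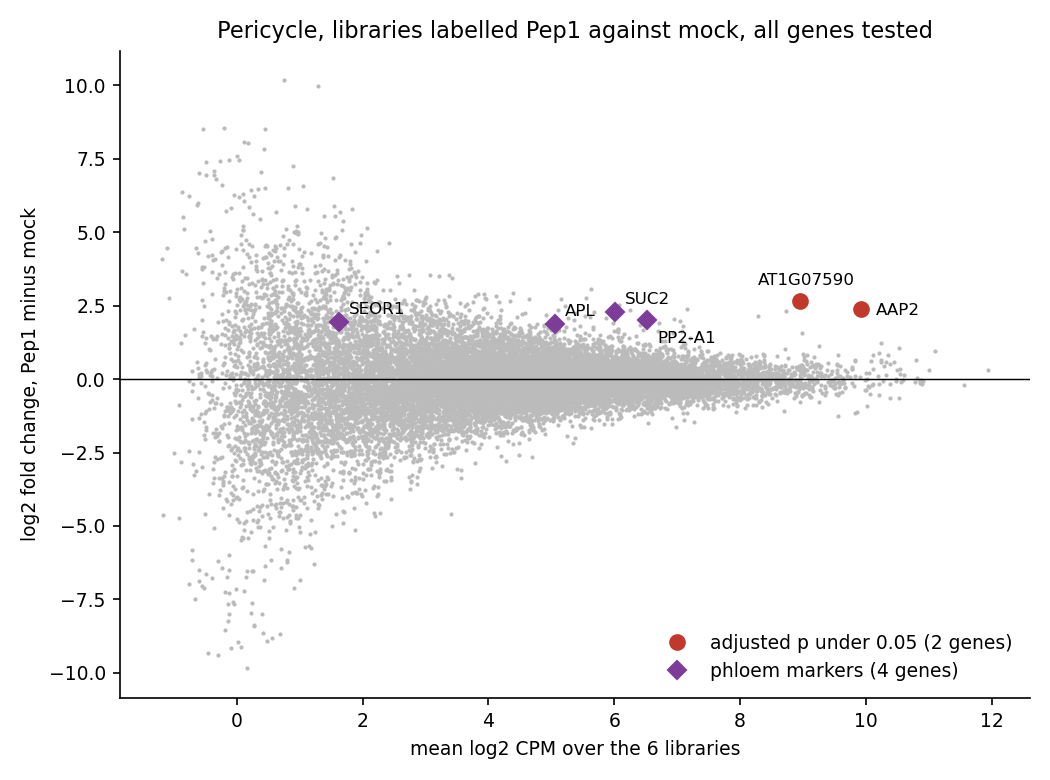
Log2 fold change of Pep1 minus mock against the mean log2 CPM over the 6 libraries for the 17692 genes tested, with the 2 called genes and the 4 phloem markers drawn larger. AAP2 and AT1G07590 lie at 2.40 and 2.65, and the phloem markers between 1.86 and 2.27.

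The phloem list was then set beside all genes. This list and the gene lists below were chosen with earlier results of these data known, so their shares are a description. All 4 markers passed the filter and 0 of 4 passed the test in edgeR, while 3 of 4 were higher at an unadjusted p under 0.05, against 1.83% of all genes. Their median log2 difference was 1.97, and each was higher in all 3 same-numbered pairs, while 29.7% of all genes kept 1 direction in the 3 pairs. PP2-A1 was at 56.8, 57.9 and 27.9 CPM in mock and at 214, 97.9 and 298 CPM in Pep1 (2.00 ± 0.47, adjusted p = 0.539 in edgeR). DESeq2 called SUC2 and PP2-A1 higher, at adjusted p values of 0.000855 and 0.0094. Reads of PP2-A1 and of a gene on its other strand cannot be told apart. APL was at 12.1, 30.7 and 14.8 CPM in mock and at 115, 38.3 and 50.5 CPM in Pep1 (1.86 ± 0.70, adjusted p = 1.00 in edgeR). SEOR1 stayed under 16 CPM and was at 0 in 1 of the 6 libraries. The pericycle list had a median of 0.39, with 5 of 6 tested members above 0 and 0 of 6 at an unadjusted p under 0.05.

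Amino acid transporters were the list that holds the called AAP2. Of 27 members 24 were tested, 1 rose and 0 fell in edgeR, and 3 were higher at an unadjusted p under 0.05, beside 1.83% of all genes, with a median log2 difference of 0.31. AAP4, a permease related to AAP2, was at 68.3, 72.1 and 64.2 CPM in mock and at 494, 225 and 151 CPM in Pep1 (1.99 ± 0.43, adjusted p = 0.460 in edgeR), without overlap, and DESeq2 called it higher at an adjusted p of 0.0038. UMAMIT11, an amino acid exporter, was at 31.9, 53.2 and 24.1 CPM in mock and at 127, 54.4 and 81.4 CPM in Pep1. The other permeases lay on both sides of 0. LHT1, the lysine and histidine transporter, was at 261, 680 and 420 CPM in mock and at 224, 487 and 386 CPM in Pep1 (-0.28 ± 0.30). AAP1 had a log2 difference of -0.58 ± 0.55.

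Of 18 genes of Pep perception and early immune signaling, all were tested and 0 passed in either direction in edgeR, with a median of -0.19. The receptor gene PEPR1 was at 290, 180 and 156 CPM in mock and at 113, 225 and 222 CPM in Pep1 (-0.20 ± 0.40, adjusted p = 1.00 in edgeR). The labels overlapped in PEPR1, as they did in PEPR2, at 28.3 to 43.6 CPM and 15.3 to 52.4 CPM, and in BAK1, at 200 to 343 CPM and 139 to 371 CPM. PROPEP1, which encodes the precursor of Pep1, was at 44.2, 38.7 and 48.0 CPM in mock and at 19.8, 57.5 and 45.3 CPM in Pep1. PROPEP3, a precursor gene that Pep peptides are known to induce, was at 24.4, 46.2 and 54.7 CPM in mock and at 4.12, 20.9 and 24.2 CPM in Pep1 (-1.63 ± 0.67, adjusted p = 1.00 in edgeR), lower in Pep1 without overlap. RBOHD, the oxidase of the elicitor-induced oxidative burst, was at 461, 538 and 524 CPM in mock and at 572, 703 and 798 CPM in Pep1 (0.43 ± 0.29, adjusted p = 1.00 in edgeR), higher without overlap.

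Of 24 early elicitor response genes, all tested, 0 passed in either direction in edgeR, 3 were lower at an unadjusted p under 0.05, beside 1.35% of all genes, and the median was -0.36. FRK1, a receptor kinase gene widely used as a marker of flg22 treatment, was at 9.17, 33.2 and 9.12 CPM in mock and at 0, 32.4 and 0.543 CPM in Pep1. WRKY33, a transcription factor of camalexin synthesis and defense, was at 518, 568 and 790 CPM in mock and at 255, 532 and 649 CPM in Pep1 (-0.48 ± 0.31, adjusted p = 1.00 in edgeR). BHLH92 was at 69.9 to 107 CPM in mock and at 34.2 to 80.6 CPM in Pep1. WRKY45 and PIRL2 stayed under 53 CPM and 12 CPM in the 6 libraries and overlapped. For GSTF6, GSTF7 and IGMT4, 1.81%, 1.76% and 2.94% of the 100-base stretches of their exons recur elsewhere in the genome, so part of their reads could come from close relatives.

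The hormone lists had 0 calls in either direction in edgeR. Of 16 jasmonate genes 13 were tested, with a median of -0.21 and 1 gene lower at an unadjusted p under 0.05, beside 1.35% of all genes. JAZ1, a repressor of jasmonate signaling, was among the most abundant, at 2116, 2052 and 1377 CPM in mock and at 1122, 2313 and 1938 CPM in Pep1. The 16 ethylene genes had a median of 0.15, and ACS6, an enzyme of ethylene synthesis, was at 475 to 818 CPM in mock and at 619 to 1271 CPM in Pep1. Of 12 salicylic acid genes 9 were tested, with a median of -0.13. SAG101, a partner of the immune regulator EDS1, was at 22.6, 28.6 and 33.2 CPM in mock and at 53.6, 44.3 and 72.2 CPM in Pep1 (1.03 ± 0.61, adjusted p = 1.00 in edgeR).

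**Figure D5:**
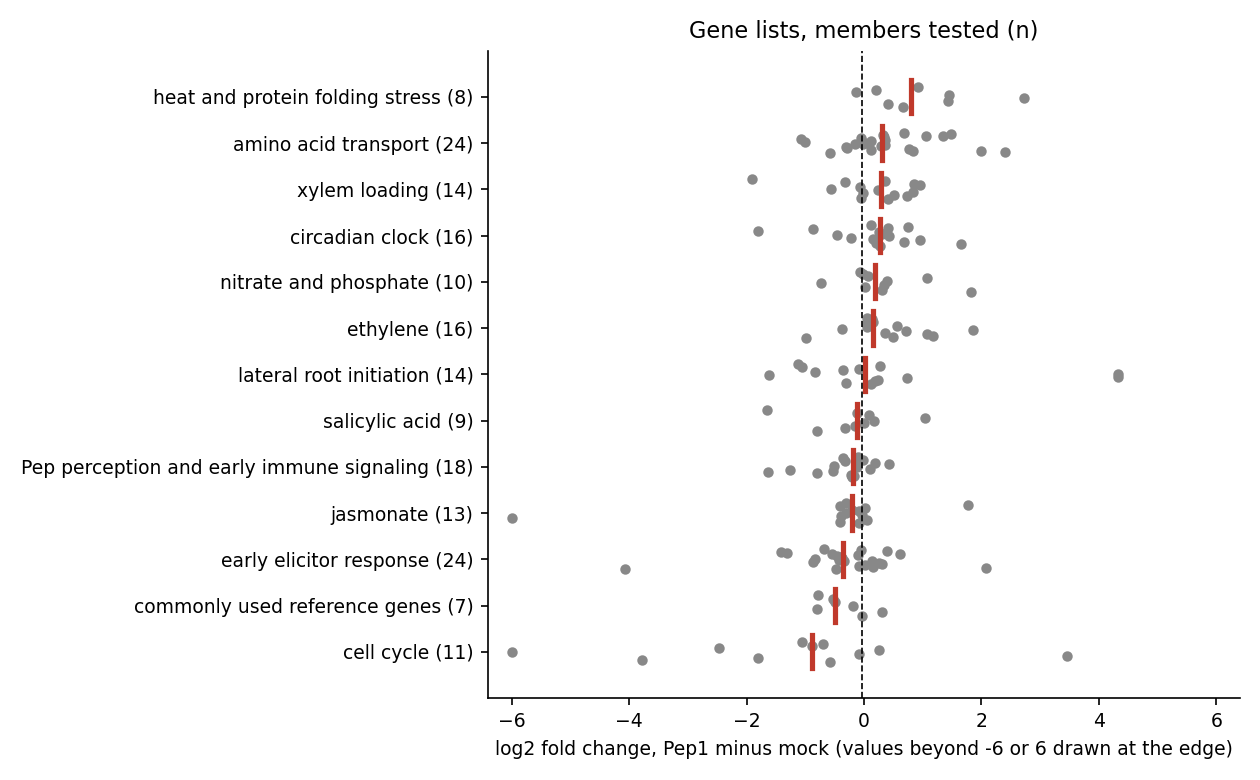
Log2 fold change of Pep1 minus mock for the tested members of each gene list (points, values beyond -6 or 6 drawn at the edge), with the list's median as a red bar and the median of all genes as a dashed line. The medians run from -0.89 for the cell cycle to 0.80 for heat and protein folding stress, beside -0.04 for all genes.

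The lists of pericycle functions also had 0 calls in either direction in edgeR. Of 15 genes of xylem loading 14 were tested, with a median of 0.29. PHO1 was at 844, 846 and 635 CPM in mock and at 1075, 957 and 1014 CPM in Pep1 (0.40 ± 0.29). AMT2, an ammonium transporter, was at 63.7, 38.7 and 44.9 CPM in mock and at 2.06, 12.8 and 50.2 CPM in Pep1 (-1.91 ± 0.85, adjusted p = 1.00 in edgeR). Of 19 genes of lateral root initiation 14 were tested, with a median of 0.01. LBD16, a transcription factor that acts in the founder cells of lateral roots, was at 0.124, 2.02 and 0.516 CPM in mock and at 11.1, 18.4 and 12.8 CPM in Pep1, but at 0.163 to 0.540 CPM in flg22 (Pep1 minus mock 4.32 ± 1.82, adjusted p = 1.00 in edgeR). The labels did not overlap in LBD16, as in 5.73% of all genes with Pep1 higher. Its mock level, at 2.02 CPM or below, was low, so the size of the difference rests on few counts.

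Of 12 nitrate and phosphate genes 10 were tested, with a median of 0.19. NRT2.1, the high-affinity nitrate transporter, was at 69.9, 78.2 and 79.0 CPM in mock and at 419, 180 and 195 CPM in Pep1 (1.82 ± 0.49, adjusted p = 1.00 in edgeR), without overlap. The 11 cell cycle genes had a median of -0.89 at low levels. CYCD4;1, a D-type cyclin, was at 5.33, 5.27 and 15.3 CPM in mock and at 0 in each Pep1 library. That is at least 10.8-fold lower when each Pep1 library is set at a floor of 3 counts. DESeq2 called CYCD4;1 lower at an adjusted p of 0.0169, whereas edgeR did not call it (unadjusted p = 0.00366). Heat and protein folding genes had a median of 0.80 over 8 tested of 10. HSP101, a chaperone, was at 190, 186 and 293 CPM in mock and at 138, 177 and 778 CPM in Pep1, so that Pep1 replicate 3 stood above the other libraries. The commonly used reference genes had a median of -0.49, with 1 of 7 lower at an unadjusted p under 0.05, beside 1.35% of all genes, and ribosomal protein genes held 2.44 to 6.36% of gene counts in mock and 1.31 to 2.83% in Pep1.

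The difference between labels in the pericycle was also set against that in the cortex and in the epidermis. Of 19132 genes, 0 differed in either comparison at an adjusted p under 0.05 (edgeR, interaction of cell type and label), 0.0% of those tested, with 1505 and 861 genes at an unadjusted p under 0.05. DESeq2 called 256 and 104, or 1.34% and 0.544%. AAP2 had 0 to 36 counts in the 18 cortex and epidermis libraries and 2118 to 12005 counts in the 9 pericycle libraries. AT1G07590 had a log2 difference of 0.59 ± 0.37 in the cortex and -0.21 ± 0.30 in the epidermis, and the pericycle difference exceeded these by 2.12 ± 0.52 (adjusted p = 0.349 in edgeR) and 2.86 ± 0.53 (adjusted p = 0.235 in edgeR). MT2B had -0.04 ± 0.53 in the cortex and 0.10 ± 0.39 in the epidermis, and the pericycle difference exceeded these by 2.26 ± 0.54 and 2.06 ± 0.53 (adjusted p = 0.349 and 0.914 in edgeR). Neither gene passed the test of that difference in edgeR.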

How the data were processed

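RNA of fluorescence-sorted root cells was sequenced in 27 libraries. The authors used STAR to align reads to TAIR10 and LiBiNorm to count them per gene over exons, ignoring strand. The submitters' processing notes instead name TopHat2 2.0.14 and HTSeq. The authors deposited unscaled counts in 34262 gene entries, and reads assigned to no gene are separate rows that stayed out of every test. All 32548 nuclear identifiers matched the TAIR10.1 annotation.

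As in the study's methods, 152 mitochondrial, 133 plastid, 5 rRNA-related and 368 ribosomal protein genes were left out, picked by annotation since the study's own list was not used here. The main fit used edgeR 4.0.16 under R 4.3.3, with limma 3.58.1, on the 9 pericycle libraries: TMM, filterByExpr (minimum count 10, minimum total 15), label plus replicate number, quasi-likelihood F test, Benjamini-Hochberg adjustment, called under 0.05 with no fold threshold. SEs come from the fold change and F. Interactions with the cortex and the epidermis used the same test. Alternatives were DESeq2 1.42.0, no replicate block, RLE size factors, total counts, no filter, ribosomal protein genes kept, only 6 libraries, all 27 libraries and each library left out, and, chosen after seeing the data, the 6 libraries with ribosomal protein genes kept. At these depths the biological coefficient of variation was 0.804. The fit was tested on simulated counts of the pericycle comparison, in 4 simulations. These counts held no replicate effect, and differences were planted only in genes with a mean above 2 CPM. The recovery below therefore need not hold for genes at lower levels or for data with replicate effects. Planted 2-fold differences were recovered in 0.5% of cases. For planted 8-fold differences the recovery was 41.75%, and false calls came to 4 in total. A list with 0 calls between the labels can therefore still hold differences of these sizes.

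The libraries, the 13 gene lists and the 48 markers were chosen with earlier results of these data known. Genes named are those called, the 12 higher and 12 lower with the smallest p (mean log2 CPM of at least 2, the same direction in 3 pairs), 2 members per list with the smallest p, and a set of Pep and elicitor genes. CYP86A1, PP2-A1 and other list members were named after their values were seen.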

Additional observations from a re-analysis of the deposited data

How the results depend on the processing

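No alternative separated the label from the code in the library titles, or depth from the spread between replicates. The count of 2 called genes became 53 in DESeq2 (41 higher, 12 lower), 27 with no filter on low counts, 5 with only the 6 libraries, 5 with these and ribosomal protein genes kept (an alternative chosen after seeing the data), 6 with all 27 libraries, 0 with ribosomal protein genes kept and 0 without the replicate block. RLE size factors and total counts gave 2 and 3. Leaving out each library gave 0 to 6 calls. Dropping mock 1, mock 3, Pep1 1 or Pep1 3 gave 0 calls, dropping mock 2, flg22 2 or flg22 3 gave 5, and dropping Pep1 2 gave 6. The causes were not tested. AAP2 and AT1G07590 kept their direction in every alternative run, with log2 differences of 1.91 to 2.74 and 2.19 to 3.12, and lost the call in 7 and 6 of them. In the fit on all 27 libraries AAP2 had an adjusted p of 0.201 in edgeR. The interactions stayed at 0 calls in every other alternative, and DESeq2 gave 256 against the cortex and 104 against the epidermis.

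Same-numbered mock and Pep1 libraries deviated together with r = 0.10, 0.02 and 0.18 across genes, against -0.14 to 0.03 for differently numbered libraries. Replicates 1 and 3 thus matched their own number best, though weakly, and replicate 2 did not. Of the variance over the 6 libraries the replicate number held 43.2% on 2 degrees of freedom, the label 21.7% on 1 and the remainder 35.0% on 2, so the shares per degree of freedom were close. Without the block both called genes had an adjusted p of 0.0799 in edgeR. Of 234 alternative values of the list medians, 20 had the other sign, in 5 lists (clock, ethylene, jasmonate, lateral root initiation and salicylic acid), and the others kept theirs.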

Other observations

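DESeq2 called 53 genes, of which 24 had at least 1 of the 6 libraries at 0 counts, 10 of them among the 12 lower calls. The other 27 higher calls included SUC2 and CLV1 at adjusted p values of 0.000855 and 0.00299 in DESeq2. Of the 53, edgeR called AAP2 and AT1G07590 on the 9 pericycle libraries, and AT1G67870, XIP1 and AT2G18196 as well on the 6 libraries alone.

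CYP86A1, a cytochrome P450 of suberin synthesis that is known from the endodermis, was at 0 CPM in each mock library and at 16.9, 16.8 and 20.6 CPM in Pep1 replicates 1 to 3, with 20.2, 2.45 and 45.5 CPM in the libraries labelled flg22. The Pep1 mean was at least 44.4-fold higher than mock with each mock library set at a floor of 3 counts (adjusted p = 0.223 in edgeR and 8.52e-07 in DESeq2). The endodermis marker list summed to less in Pep1 than in mock, though its members were mixed, as given above. Of its members SCR and CASP1 had counts in all 6 libraries whereas ESB1 was at 0 in all 6. The part of that list in this difference was not tested.

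Pep1 replicate 3 held the highest summed level of heat and protein folding genes among the 6 libraries, at 1879 CPM, against 373 to 741 CPM in mock and 438 and 501 CPM in the other Pep1 libraries. HSP21 and HSP22, small heat shock proteins, were at 26.1 and 11.9 CPM there and at 0 in Pep1 replicates 1 and 2. This was not confined to 1 label: all 10 genes of the list had a count in mock replicate 3 too. In mock replicates 1 and 2, 7 and 8 of them had a count.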
